A study of Mus musculus with 16 samples.

Results

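The replication-dependent histone genes were followed in mouse atrial tissue over the first week after myocardial infarction. They were taken as the measured rows whose annotation gives exactly 1 gene symbol of the form Hist1h to Hist4h, or of the newer form such as H2ac20, with the row of the highest mean used for each gene. This gave 29 genes out of 30145 genes with 1 symbol: 10 for H2A, 9 for H2B, 3 for H3, 2 for H4 and 5 for the linker histone H1. Of these genes 22 lie on chromosome 13, 6 on chromosome 3 and 1 on chromosome 11. Their symbols are given as the annotation spells them. A further 39 histone rows carry several symbols and are described separately, 36 of them with genes of 1 family and 3 that mix families or other genes.

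Histones are the proteins around which DNA is wrapped. H2A, H2B, H3 and H4 form the core of the nucleosome, and H1 binds the linker DNA between nucleosomes. The replication-dependent genes are small, lack introns and stand in clusters as many near-identical copies. They are transcribed mainly in S phase, when new DNA has to be packed, and their mRNAs end in a stem-loop bound by SLBP instead of a poly(A) tail. In the adult heart most cardiomyocytes do not divide, while blood-derived and stromal cells can do so after an injury.

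The tissue came from 10-week-old male wild-type C57BL/6 mice. It was taken 1, 3 and 7 days after the left anterior descending coronary artery was tied off, which infarcts the ventricle, and from mice with sham surgery, with 4 arrays in each of the 4 groups. The sources used here do not say at which time sham tissue was collected. The labels do not spell out that each array is 1 mouse, so the tests measure the spread between these arrays.

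Values are the deposited log2 signals, and every difference is a log2 difference of that signal, which need not equal a fold of mRNA. "Called" means an adjusted p below 0.05 in limma, with Benjamini-Hochberg adjustment over the 18420 genes that passed a filter on low values. A gene is described as at background in a group when it lay at or below the median of the array's negative controls on every array there. A difference from such a group is given as a lower bound, "at least", and no size is given where both groups were at background. Levels of different genes are not compared, since each probe has its own response. The copies are so alike in sequence that a row annotated to 1 gene may also detect others, and which copy is meant is uncertain throughout. The RNA was labelled as biotinylated cRNA. The sources used here do not say whether labelling was primed on poly(A) tails, which most of these mRNAs lack.

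Positive and negative control rows separated less well on day 3 array 31 (0.743) and day 1 array 13 (0.755) than on the other 14 arrays (0.793 to 0.825, where 1 is full separation). Day 3 array 31 also stood apart in its markers: the median of the neutrophil list lay 5.69 above the sham mean there, against 1.64 to 1.91 on the other 3 day 3 arrays. Several of the results that rest on this array, but not all, are given with and without it. In sham atria 6 of 8 measured atrial cardiomyocyte markers lay above the 95th percentile of the negative controls on all 4 arrays, while Bmp10 was at background.

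The 250 bases before the start of transcription are shown for genes of the main families, because histone promoters are known to carry short motifs, some of them particular to a family, that act in S phase. Windows come from RefSeq, build GRCm38.p6, and 25 of the 29 genes had one. Hist1h2aj, Hist2h2be, Hist1h3f and Hist3h2bb-ps had none. Sequences run 5′ to 3′ on the strand of the gene. Capitals mark CCAAT boxes (CCAAT, or ATTGG on the other strand), TATAAA, the octamer ATTTGCAT known from H2B promoters, the H1 box AAACACA, and the E2F-type letters TTTCGCGC, each searched on both strands with overlaps allowed. The first 3 are H2A genes, at chr13:23533625-23533874 (plus strand), chr13:21753913-21754162 (minus strand) and chr3:96220881-96221130 (minus strand).
Hist1h2af: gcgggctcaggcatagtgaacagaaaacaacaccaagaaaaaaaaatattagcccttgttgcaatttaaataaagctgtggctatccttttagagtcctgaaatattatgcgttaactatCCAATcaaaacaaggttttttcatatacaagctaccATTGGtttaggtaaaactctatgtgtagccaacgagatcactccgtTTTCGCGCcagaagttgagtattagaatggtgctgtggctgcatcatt
Hist1h2ak: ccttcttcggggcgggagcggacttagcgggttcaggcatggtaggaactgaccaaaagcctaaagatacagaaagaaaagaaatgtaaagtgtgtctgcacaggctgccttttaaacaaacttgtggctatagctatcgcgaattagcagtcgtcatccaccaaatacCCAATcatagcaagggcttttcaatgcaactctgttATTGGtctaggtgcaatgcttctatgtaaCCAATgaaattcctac
H2ac20: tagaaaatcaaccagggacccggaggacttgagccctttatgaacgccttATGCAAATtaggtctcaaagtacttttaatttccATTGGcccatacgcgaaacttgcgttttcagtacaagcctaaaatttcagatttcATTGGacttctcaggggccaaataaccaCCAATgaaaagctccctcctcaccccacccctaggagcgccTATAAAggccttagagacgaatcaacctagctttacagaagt
The next pair are H2B genes, at chr13:22035571-22035820 (plus strand) and chr3:96269450-96269699 (plus strand).
Hist1h2bk: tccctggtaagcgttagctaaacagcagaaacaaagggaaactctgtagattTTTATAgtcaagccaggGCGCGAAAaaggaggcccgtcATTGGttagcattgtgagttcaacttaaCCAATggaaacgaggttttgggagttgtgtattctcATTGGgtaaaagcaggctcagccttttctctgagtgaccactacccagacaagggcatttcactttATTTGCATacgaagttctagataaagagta
Hist2h2bb: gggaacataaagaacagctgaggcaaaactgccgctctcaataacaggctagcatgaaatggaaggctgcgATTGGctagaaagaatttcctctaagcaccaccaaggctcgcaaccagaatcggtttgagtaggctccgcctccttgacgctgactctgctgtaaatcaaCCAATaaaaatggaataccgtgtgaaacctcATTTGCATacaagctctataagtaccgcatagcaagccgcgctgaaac
The last pair are linker histone genes, at chr13:21780626-21780875 (minus strand) and chr13:23738557-23738806 (plus strand). They are shown because Hist1h1b rose on day 3 and Hist1h1c was not called on any day.
Hist1h1b: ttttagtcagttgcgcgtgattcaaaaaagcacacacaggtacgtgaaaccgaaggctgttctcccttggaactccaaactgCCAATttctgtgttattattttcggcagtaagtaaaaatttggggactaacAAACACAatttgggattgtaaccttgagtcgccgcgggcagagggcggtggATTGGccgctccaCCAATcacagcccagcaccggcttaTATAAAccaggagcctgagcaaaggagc
Hist1h1c: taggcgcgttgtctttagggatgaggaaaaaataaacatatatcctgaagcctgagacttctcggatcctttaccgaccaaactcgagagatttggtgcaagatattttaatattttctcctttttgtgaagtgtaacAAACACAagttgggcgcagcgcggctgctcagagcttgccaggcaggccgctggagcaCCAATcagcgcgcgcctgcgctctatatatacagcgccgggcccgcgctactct

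A CCAAT box was found in 24 of the 25 windows, against 33.8% of 32851 promoter windows of the same length. The octamer was found in 8 windows, among them 5 of 7 H2B windows, against 1.6% of all promoters. In Hist1h2bk its first base lies 30 bases before the start and in Hist2h2bb 48 bases before it. The H1 box was found in 7 windows, among them 4 of 5 H1 windows, against 6.25% of all promoters. It stands 117 bases before the start in Hist1h1b and 112 bases before it in Hist1h1c. TATAAA was found in 10 windows, against 12.4% of all promoters, and TTTCGCGC in 3, against 0.256%. These are matches of letters and show no binding. Some windows are shared: those of Hist1h2ah and Hist1h2bk overlap by 177 bases on opposite strands, and those of Hist1h2aa and Hist1h2ba by 220 bases. A match inside an overlap is counted in both windows, so the counts above are of windows and not of separate sites. This holds for the octamer in both pairs and for the H1 box in Hist1h2aa and Hist1h2ba.

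Most of the tested histone genes were called higher than sham 3 days after infarction, and fewer were called on day 7. On day 3, 16 of the 22 tested histone genes were called higher than sham and 1 lower, where 23.5% of all tested genes were called higher and 20.2% lower. On day 1 none was called higher and 2 were lower, against 24.9% higher and 22.2% lower among all tested genes. No histone gene was higher on day 1 even at an unadjusted p below 0.05 in limma, and 2 were lower. With array weights in the fit 1 was called higher and 3 lower, against 36.2% and 27.8% of all tested genes. On day 7, 7 were called higher and 1 lower, against 14.9% and 9.92%. At an unadjusted p below 0.05 in limma 16 were higher and 1 lower on day 3, and 13 higher and 1 lower on day 7. The shares of all tested genes at that threshold were not counted. The 3 comparisons share the sham arrays. In 1 test for a difference on any of the 3 days (limma, moderated F test), 15 of the 22 were called, against 52.3% of all tested genes.

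The filter on low values removed 7 of the 29 genes (Hist1h1t, Hist2h2ab, Hist1h2bh, Hist3h2bb-ps, Hist1h3g, Hist1h4a and Hist1h4b), and some others passed only through the infarcted groups, so the counts were also made over all 29 without a filter. Then 20 of 29 were called higher on day 3 and 1 lower, where 13.9% of all 30145 genes were higher and 11.7% lower. On day 7, 9 were higher and 1 lower, against 8.12% and 5.31%. On day 1 none was higher and 1 was lower, against 15.4% and 12.7%. The median difference over all 29 genes was -0.03 on day 1, 0.53 on day 3 and 0.44 on day 7, against 0.08, 0.04 and -0.04 over all genes. Each of these histone medians is the value of a gene at background in both groups, so it gives no size. The family medians below also include genes at background. All 4 day 3 values lay above all 4 sham values in 16 of 29 histone genes, against 14.8% of all genes, and the same held on day 7 in 14 of 29, against 12.8%.

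Much of the family lies near the lower end of the array. On day 3 only Hist1h2af and Hist1h2aj lay above the 95th percentile of the negative controls on all 4 arrays. The H1, H2B and H3 genes called higher on day 3 did not exceed it on any day 3 array. Of the 29 genes 20 were at background on day 1, 10 on day 3, 11 on day 7 and 14 in sham, and 8 were at background in all 4 groups. Of the 16 genes called higher on day 3, 9 have a measured difference, 4 have only a lower bound and 3 have no size. Among these 9, Hist1h1d did not exceed the negative-control median on 3 of the 4 sham arrays. The same held on 2 of the 4 sham arrays for Hist2h2bb, Hist1h3c and Hist1h3f. The differences from sham given below for these genes therefore start from levels partly in background, and their sizes are uncertain. Leaving out day 3 array 31, or that array and day 1 array 13, gave 16 and 17 genes higher on day 3. The shares of all tested genes were then 26.8% and 28.2%. The day 7 count depended on day 3 array 31, which enters that comparison only through the spread that all groups share. Without this array the day 7 differences from sham were unchanged, but 12 genes in place of 7 were called higher on day 7. The share of all tested genes called higher that day was then 19.5% in place of 14.9%. The scaling of the arrays also mattered to the background. Higher calls made up 52.9%, 53.8% and 60.0% of all called genes on days 1, 3 and 7, but 30.7%, 35.8% and 59.1% under quantile normalisation and 43.0%, 50.8% and 78.6% after subtracting array medians. On day 1 the median of all tested genes was 0.06 in the deposited values, against -0.15 and -0.09 after these scalings. Under them 12 and 13 histone genes were called higher on day 3, against 14.1% and 16.2% of all tested genes. On day 7, 6 and 6 were, against 9.87% and 10.9%, and on day 1 none, against 14.3% and 17.2%.

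**Figure D1:**
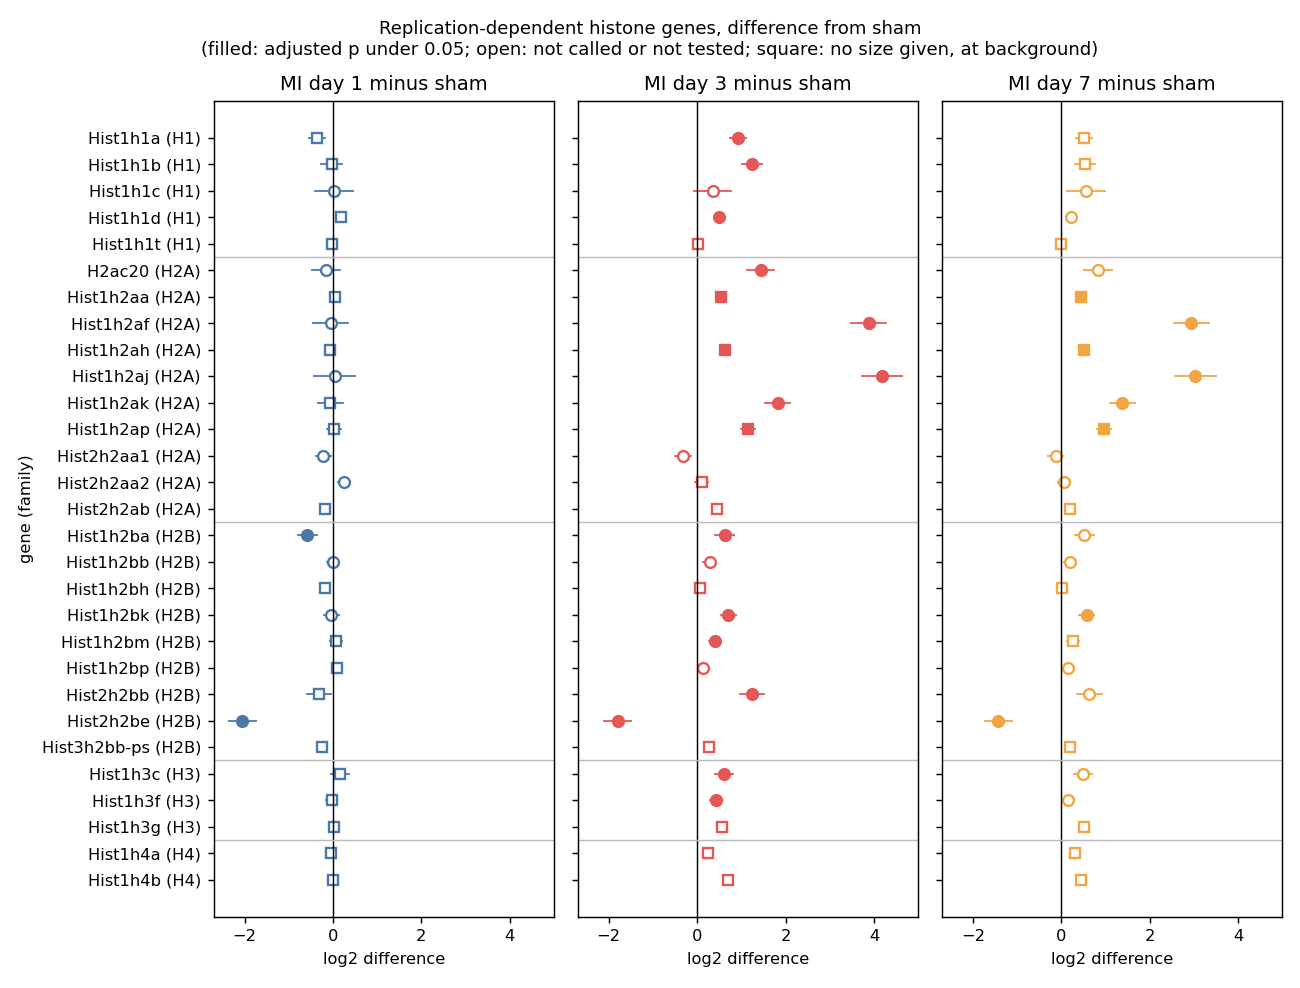
Each point is 1 of the 29 histone genes, grouped by family, with its log2 difference from sham (horizontal axis) on day 1, day 3 and day 7; lines are standard errors from limma (n = 4 arrays a group). Filled points have an adjusted p below 0.05, open points do not or were not tested, and squares mark genes with no size because of background; 16 genes were called higher on day 3, 7 on day 7 and none on day 1, and Hist2h2be was called lower on each day.

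The largest differences among the 29 genes, and 6 of the 7 genes called higher on day 7, were in H2A. On day 3, 7 of the 9 tested H2A genes rose, and 8 of 10 without the filter. On day 7, 6 were called higher under either. The median over all 10 was -0.05 on day 1, 0.88 on day 3 and 0.66 on day 7. The family median on single arrays lay 0.52, 1.15, 0.89 and 0.86 above the sham mean on day 3 arrays 31 to 34.

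Hist1h2aj encodes a canonical H2A. Its signal was 10.98, 11.19, 10.61 and 11.40 on the day 1 arrays, 13.42, 15.75, 15.69 and 15.90 on day 3, 13.70, 14.32, 13.94 and 14.19 on day 7, and 10.23, 10.97, 11.20 and 11.62 in sham. Every day 3 and day 7 value lay above every sham value, while day 1 and sham overlapped, and the lowest day 3 value was that of array 31. The difference from sham was 4.18 ± 0.46 on day 3 (SE; limma, adjusted p = 9.28e-06) and 3.03 ± 0.46 on day 7 (adjusted p = 0.000317), against 0.04 on day 1 (adjusted p = 0.949). Without array 31 the day 3 difference was 4.77.

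Hist1h2af, a canonical H2A gene whose promoter above holds 2 CCAAT boxes and a TTTCGCGC, followed the same course. Its signal was 9.34, 9.32, 8.84 and 9.67 on day 1, 11.63, 13.66, 13.75 and 13.85 on day 3, 12.04, 12.52, 12.16 and 12.40 on day 7, and 8.90, 9.31, 9.38 and 9.78 in sham. It rose by 3.88 ± 0.40 on day 3 (limma, adjusted p = 5.65e-06) and by 2.93 ± 0.40 on day 7 (adjusted p = 0.00014), and the day 1 difference was -0.05 (adjusted p = 0.922). Since Hist1h2aj and Hist1h2af may be read by the same transcripts, their near-equal courses are not 2 independent measurements.

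Hist1h2ak was at background in sham and on day 1 and came up out of it later. Its signal was 3.47, 3.24, 3.30 and 3.51 on day 1, 4.05, 5.56, 5.89 and 5.52 on day 3, 4.65, 4.78, 4.90 and 4.92 on day 7, and 3.54, 3.57, 3.45 and 3.18 in sham. The difference was at least 0.77 on day 3 (limma, adjusted p = 0.000155) and at least 0.32 on day 7 (adjusted p = 0.00275). H2ac20, an H2A gene of the small cluster on chromosome 3, had 6.39, 6.04, 5.87 and 6.14 on day 1, 6.57, 8.21, 8.17 and 7.87 on day 3, 6.86, 7.37, 7.14 and 7.01 on day 7, and 5.64, 6.57, 6.34 and 6.51 in sham. It rose by 1.44 ± 0.31 on day 3 (adjusted p = 0.00172), where array 31 alone reached into the sham range. Its day 7 difference of 0.83 ± 0.31 was not called (adjusted p = 0.0641), although every day 7 value lay above every sham value, and it was called without day 3 array 31 (adjusted p = 0.00341).

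**Figure D2:**
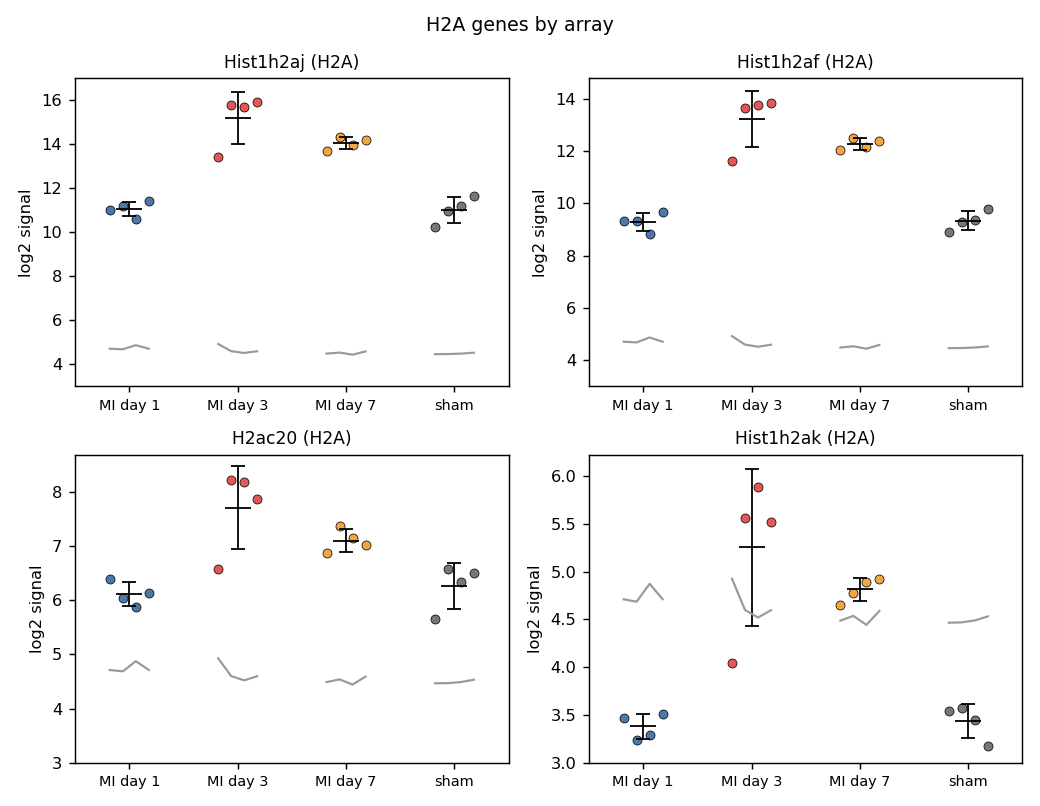
Log2 signal (vertical axis) of Hist1h2aj, Hist1h2af, H2ac20 and Hist1h2ak on each array by group; points are arrays, bars are the mean with its SD (n = 4), and grey lines are each array's median of the negative controls. Day 3 and day 7 lie above sham in all 4 genes except for day 3 array 31 in H2ac20, day 1 overlaps sham, and Hist1h2ak lies below the grey line in sham and on day 1.

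The other H2A genes gave calls without a size or no call. Hist1h2ap had 3.20, 3.21, 3.30 and 3.43 on day 1, 4.00, 4.79, 4.48 and 4.34 on day 3, 4.15, 4.46, 4.36 and 3.90 on day 7, and 2.98, 3.30, 3.40 and 3.36 in sham. All its day 3 and day 7 values lay above all sham values (limma, adjusted p = 5.37e-05 on day 3 and 0.000545 on day 7), but it stayed at or near background. Hist1h2ah and the testis H2A gene Hist1h2aa were also called higher on both days without a size. Hist2h2aa1 and Hist2h2aa2, paired copies on chromosome 3, were not called: Hist2h2aa1 differed from sham by -0.33 ± 0.18 on day 3 (adjusted p = 0.155), and Hist2h2aa2 was at background on day 3 (adjusted p = 0.578). Without sham array 2 Hist2h2aa1 was called lower on day 3 (adjusted p = 0.0192). Hist2h2ab was at background in every group.

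The H2B family was divided. On day 3, 4 of the 7 tested H2B genes were called higher and 1 lower, and 5 of 9 higher and 1 lower without the filter. Its median over all 9 was -0.18 on day 1, 0.28 on day 3 and 0.20 on day 7. Hist2h2bb, on chromosome 3, had 3.89, 4.45, 3.79 and 4.45 on day 1, 4.68, 6.14, 6.28 and 5.66 on day 3, 5.05, 5.24, 5.09 and 4.97 on day 7, and 4.42, 4.51, 4.62 and 4.27 in sham. All day 3 and day 7 values lay above the sham values. It rose by 1.24 ± 0.27 on day 3 (limma, adjusted p = 0.00215). Its day 7 difference of 0.63 ± 0.27 was not called (adjusted p = 0.108) and was called without day 3 array 31 (adjusted p = 0.0078).

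Hist1h2bk, whose promoter above shows both the octamer and a TTTCGCGC match, had 4.81, 4.82, 5.37 and 4.96 on day 1, 5.31, 6.21, 5.82 and 5.62 on day 3, 5.74, 5.44, 5.52 and 5.72 on day 7, and 4.93, 5.14, 5.15 and 4.91 in sham. The day 3 and day 7 values lay above all sham values, by 0.71 ± 0.17 on day 3 (limma, adjusted p = 0.00342) and 0.57 ± 0.17 on day 7 (adjusted p = 0.0214). The day 7 call was lost under quantile normalisation (adjusted p = 0.0643) and after subtracting array medians (adjusted p = 0.0547), and without sham array 1 or 4 or day 7 array 71 or 74 (adjusted p = 0.0545 to 0.0632).

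Hist1h2ba encodes TH2B, an H2B of the testis. It had 4.42, 4.52, 4.13 and 4.69 on day 1, 4.81, 6.06, 5.93 and 5.80 on day 3, 5.52, 5.62, 5.39 and 5.63 on day 7, and 4.79, 5.13, 4.98 and 5.19 in sham. On day 1 all 4 values lay below sham and at background, a difference of -0.28 or lower (limma, adjusted p = 0.0386). On day 3 the difference was 0.62 ± 0.22 (adjusted p = 0.0298), with array 31 inside the sham range. The day 1 call was lost without sham array 2, 3 or 4 or day 1 array 11, 12 or 13 (adjusted p = 0.0504 to 0.117), and without the filter (adjusted p = 0.0549). The day 3 call was lost without sham array 1 or 3 or day 3 array 32, 33 or 34 (adjusted p = 0.0628 to 0.0913), under quantile normalisation (adjusted p = 0.19) and after subtracting array medians (adjusted p = 0.148). Hist1h2bm had 4.21, 4.28, 4.32 and 4.30 on day 1, 4.34, 5.04, 4.64 and 4.44 on day 3, 4.48, 4.28, 4.77 and 4.35 on day 7, and 4.07, 4.14, 4.29 and 4.35 in sham, and each day overlapped sham. Its day 3 difference was at least 0.13 (adjusted p = 0.0269), which was lost under quantile normalisation (adjusted p = 0.155), after subtracting array medians (adjusted p = 0.165) and without sham array 1 or 2 or day 3 array 32 or 33 (adjusted p = 0.0532 to 0.077). Hist1h2bb and Hist1h2bp were not called on any day, and Hist1h2bh and the pseudogene Hist3h2bb-ps were at background throughout.

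Hist2h2be was the one histone gene that fell on all 3 days. In mouse olfactory neurons it is known as an H2B variant made outside S phase. Its signal was 6.25, 6.32, 5.81 and 6.57 on day 1, 5.79, 7.13, 6.49 and 6.53 on day 3, 6.82, 6.74, 7.03 and 6.86 on day 7, and 7.34, 8.59, 8.56 and 8.65 in sham. Every value after infarction lay below every sham value, and sham array 1 was the lowest of its group. The difference was -2.05 ± 0.30 on day 1 (limma, adjusted p = 0.00012), -1.80 ± 0.30 on day 3 (adjusted p = 0.000264) and -1.42 ± 0.30 on day 7 (adjusted p = 0.00316), and -1.57 on day 3 without array 31. Hist2h2be stands next to H2ac20 in the RefSeq gene order of GRCm38.p6, yet on day 3 H2ac20 rose by 1.44. This pair was picked after the values were seen, and the difference between the 2 genes was not tested.

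The calls in H3 were small. Hist1h3c had 4.26, 4.23, 4.53 and 4.48 on day 1, 4.48, 5.30, 4.96 and 4.58 on day 3, 4.74, 5.02, 4.58 and 4.51 on day 7, and 4.58, 4.48, 4.11 and 3.69 in sham. The groups overlapped, and the day 3 difference of 0.61 ± 0.20 (limma, adjusted p = 0.0246) was no longer called under quantile normalisation (adjusted p = 0.0866), after subtracting array medians (adjusted p = 0.0834) or without sham array 3 or 4 or day 3 array 32 or 33 (adjusted p = 0.0579 to 0.0856). Hist1h3f had 4.55, 4.51, 4.32 and 4.39 on day 1, 5.16, 5.09, 4.61 and 4.68 on day 3, 4.57, 4.66, 4.81 and 4.38 on day 7, and 4.33, 4.49, 4.55 and 4.50 in sham. Its day 3 values lay just above all sham values, by 0.42 ± 0.12 (adjusted p = 0.0128, and 0.0539 under quantile normalisation). Hist1h3g was at background in every group and therefore has no size, with 4.14, 3.58, 4.03 and 3.84 on day 3 against 3.35, 3.31, 3.41 and 3.32 in sham (adjusted p = 0.00203 without the filter).

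Both H4 genes were at background on every array. Hist1h4b had 3.63, 3.50, 3.54 and 3.26 on day 1, 4.11, 4.23, 3.85 and 4.53 on day 3, 3.74, 4.29, 3.70 and 3.96 on day 7, and 3.35, 3.63, 3.42 and 3.51 in sham. Without the filter it was called higher on day 3 (limma, adjusted p = 0.00207), and its neighbour Hist1h4a was called higher on day 7 (adjusted p = 0.0326) but not on day 3 (adjusted p = 0.0656). No size can be read from either, so single-gene rows say little about H4.

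Of the 4 tested linker histones, Hist1h1a, Hist1h1b and Hist1h1d were called higher on day 3, and none was called on day 7. Hist1h1b had 3.80, 3.39, 3.66 and 3.58 on day 1, 3.93, 5.24, 5.08 and 5.27 on day 3, 4.37, 3.91, 4.10 and 4.31 on day 7, and 3.51, 3.54, 3.77 and 3.74 in sham. On day 3 arrays 32 to 34 lay far above sham and array 31 just above it. The difference was at least 0.39 on day 3 (limma, adjusted p = 0.000665), and day 7 was at background (adjusted p = 0.113). Hist1h1a had 3.11, 3.18, 3.52 and 3.17 on day 1, 3.87, 4.81, 4.74 and 4.62 on day 3, 4.03, 3.96, 4.41 and 4.02 on day 7, and 3.69, 3.53, 3.76 and 3.39 in sham. The day 3 difference was at least 0.02 (adjusted p = 0.000958), a bound near 0, and day 7 missed the threshold (adjusted p = 0.0521). Without day 3 array 31 both genes were called on day 7, Hist1h1b at an adjusted p of 0.00174 and Hist1h1a at 0.00352, and Hist1h1a also on day 1, as lower than sham (adjusted p = 0.0166).

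Hist1h1d rose by 0.49 ± 0.10 on day 3 (limma, adjusted p = 0.0016), with 4.45, 4.54, 4.84 and 4.60 on day 1, 5.12, 4.82, 4.94 and 4.79 on day 3, 4.52, 4.67, 4.75 and 4.60 on day 7, and 4.31, 4.47, 4.66 and 4.29 in sham. Its day 3 values lay above all sham values, and day 1 and day 7 overlapped sham and were not called. Hist1h1c, a linker histone also made by cells that do not divide, was not called on any day. It had 9.77, 10.11, 8.11 and 9.62 on day 1, 8.73, 10.16, 9.85 and 10.18 on day 3, 9.68, 9.95, 10.11 and 10.01 on day 7, and 8.81, 9.11, 10.17 and 9.43 in sham. The groups overlapped, the lowest values being day 1 array 13 and day 3 array 31, and the day 3 difference was 0.35 ± 0.42 (adjusted p = 0.517). With this SE a rise the size of that in Hist1h1d could not have been told from none. The testis linker histone Hist1h1t lay between 2.88 and 3.14 on all 16 arrays, at background.

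**Figure D3:**
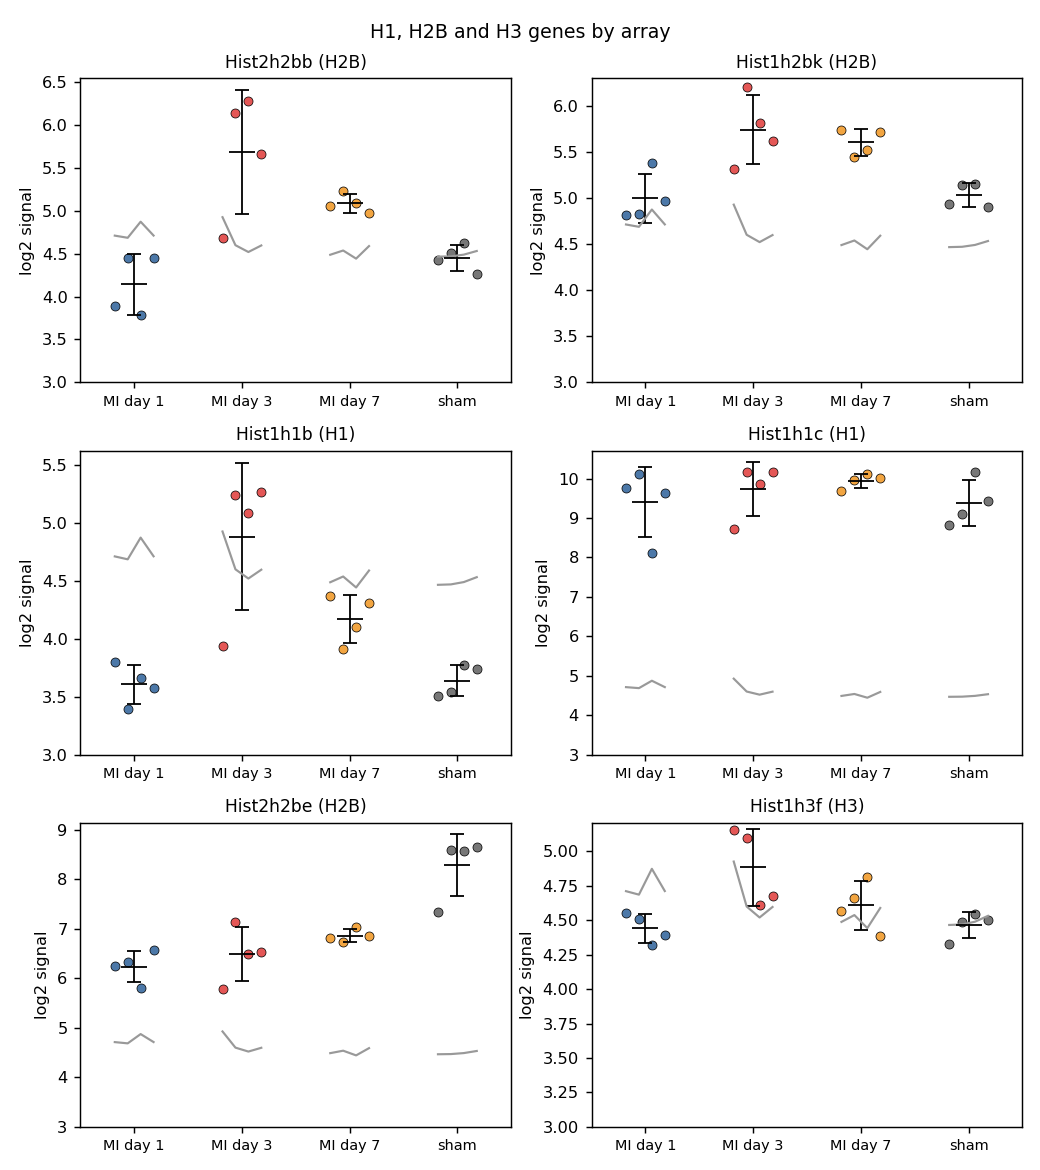
Log2 signal (vertical axis) on each array of the H2B genes Hist2h2bb, Hist1h2bk and Hist2h2be, the linker histone genes Hist1h1b and Hist1h1c, and the H3 gene Hist1h3f, by group; points are arrays, bars are the mean with its SD (n = 4), and grey lines are each array's median of the negative controls. Hist2h2be lies below sham on all 3 days, Hist2h2bb, Hist1h2bk, Hist1h1b and Hist1h3f lie above sham on day 3, and the groups of Hist1h1c overlap.

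Set directly against day 1, 13 of the 22 tested genes were called higher on day 3 and none lower, where 5.95% of all tested genes were higher and 2.16% lower. The share of higher calls among all genes called between these days was 73.4%, and 75.6% and 76.9% under the 2 other scalings. Without day 3 array 31, 15 of the 22 were higher and none lower, where 18.8% of all tested genes were higher and 16.8% lower. The shares of all tested genes thus depended strongly on that array. With all arrays and no filter the counts were 16 of 29 and none, against 2.9% and 1.15%. The differences in H2A were 4.14 ± 0.46 for Hist1h2aj (limma, adjusted p = 0.000266) and 3.93 ± 0.40 for Hist1h2af (adjusted p = 0.00015). Hist2h2bb, at background on day 1, differed by at least 0.94 (adjusted p = 0.00352), Hist1h2bk by 0.74 ± 0.17 (adjusted p = 0.0141) and Hist1h1b by at least 0.14 (adjusted p = 0.00395). H2ac20 differed by 1.60 ± 0.31 (adjusted p = 0.00562). On day 7, 11 genes were called higher than on day 1 and none lower, against 13.6% and 12.7% of all tested genes, where the share of higher calls among all called genes was 51.8% in the deposited values and 73.9% and 70.9% under the 2 other scalings. Without day 3 array 31, 12 genes were higher and none lower, against 21.5% and 28.7% of all tested genes.

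Between day 3 and day 7 no histone gene was called in either direction, where 4.06% of all tested genes were called higher on day 7 and 8.57% lower. The day 7 minus day 3 difference was below 0 in 24 of the 29 genes (82.8%) and in 66.9% of all 30145 genes. Higher calls made up 32.1% of all called genes here, and 58.3% and 42.2% under the 2 other scalings. At an unadjusted p below 0.05 in limma 7 genes were lower on day 7 and none was higher. The share of all tested genes at that threshold was not counted, so this count has no background to stand against. Hist1h2aj differed by -1.15 ± 0.46 (adjusted p = 0.115) and Hist1h2af by -0.94 ± 0.40 (adjusted p = 0.136). Leaving out day 3 array 31, the array with the lowest day 3 value in both, gave 7 genes called lower on day 7 (Hist1h2aj, Hist1h2af, Hist1h2ak, H2ac20, Hist2h2bb, Hist1h1a and Hist1h1b), where 12.1% of all tested genes were called lower. Array weights gave 9 genes, where the share was 18.6%. The median difference was -0.28 for H1, -0.22 for H2A, -0.09 for H2B and -0.12 for H3, against -0.07 over all genes.

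**Figure D4:**
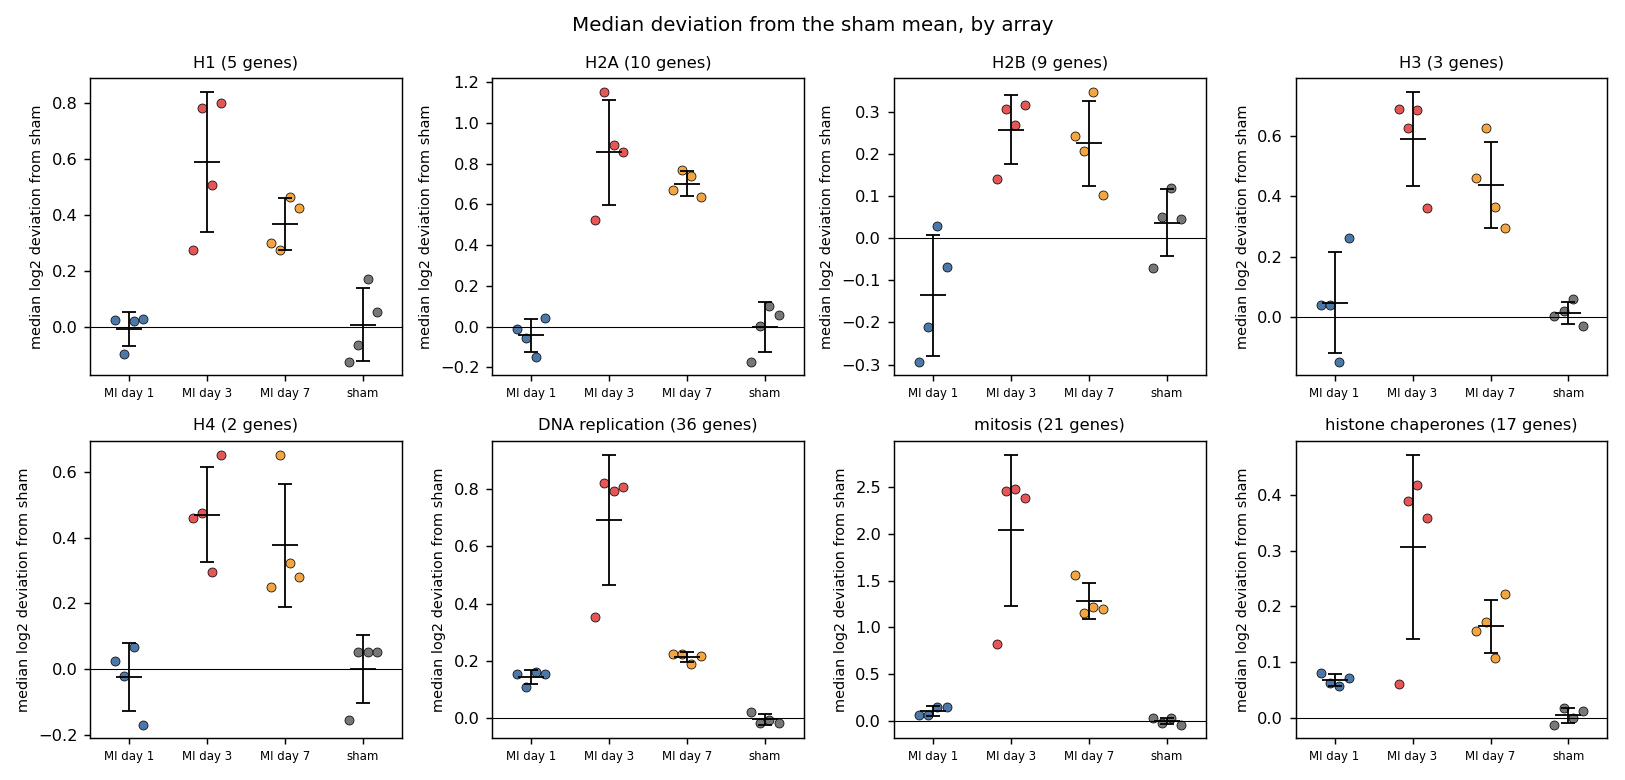
Median deviation from the sham mean (vertical axis, log2 signal) on each array for the 5 histone families and for fixed lists of DNA replication, mitosis and histone chaperone genes; points are arrays, by group, and bars are the mean with its SD (n = 4). Day 1 overlaps sham in the 5 histone families, day 3 and day 7 lie above sham in the 5 histone families except for day 7 array 74 in H2B (0.10), and day 3 array 31 is the lowest day 3 array for H1, H2A, H2B, DNA replication, mitosis and chaperones.

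The rows annotated to several genes of 1 family broaden this picture, above all for H3 and H4. They were fitted with all 65956 rows and no filter, a fit added after the values were seen. There were 9 rows of several H2A genes, 9 of H2B, 7 of H3 and 11 of H4, with 2 to 10 genes a row for H2A and 13 for each H4 row. Since rows of a family share their genes, they are not independent. On day 3, 6 of 9 H2A rows, 3 of 9 H2B rows, 7 of 7 H3 rows and 7 of 11 H4 rows were called higher and none lower, where 7.76% of all rows were called higher and 6.01% lower. On day 7 the counts in these 36 rows were 6, 0, 6 and 4, again with none lower, against 4.03% higher and 2.56% lower. On day 1 none was called higher, against 10% of all rows, and 1 H2A and 2 H2B rows were lower, against 6.54%. Without day 3 array 31 the H2B counts were 6 of 9 higher on day 3, 4 of 9 higher on day 7 and 6 of 9 lower on day 1. In the same fit 8 of 11 H4 rows were higher on day 3, 6 on day 7 and 3 lower on day 1. The shares of all rows were then 8.65% higher on day 3, 6.03% higher on day 7 and 9.38% lower on day 1. The day 1 counts also rested on array 13: with both arrays left out, 4 H2B rows and no H4 row were lower on day 1, against 8.56% of all rows. Of the 3 mixed rows, one with H1, H2B and other genes was lower on day 1 (-1.08, limma, adjusted p = 0.000123) and day 3 (-0.50, adjusted p = 0.0265), and one with H2A and H3 genes was higher on day 3 (0.55, adjusted p = 0.00272) and day 7 (0.41, adjusted p = 0.0358).

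The median difference on day 3 was 1.11 over the H2A rows, 0.66 over H2B, 1.01 over H3 and 0.75 over H4, against 0.05 over all rows. These medians include rows at background. The H3 median is that of a row at background in sham and on day 3, so it gives no size. Of the rows called higher on day 3, 3 H2A, 3 H2B, 4 H3 and 2 H4 rows have a measured difference. A lower bound holds for 2 H2A, 1 H3 and 2 H4 rows, and no size can be given for 1 H2A, 2 H3 and 3 H4 rows. The H2A row with the largest difference had 10.18, 10.57, 9.96 and 10.81 on day 1, 12.78, 15.30, 15.11 and 15.26 on day 3, 13.22, 13.79, 13.38 and 13.71 on day 7, and 9.79, 10.29, 10.46 and 10.94 in sham. It rose by 4.24 ± 0.46 on day 3 (limma, adjusted p = 1.99e-05), close to Hist1h2aj above. The H3 row with the largest difference had 5.03, 5.29, 5.13 and 5.13 on day 1, 7.20, 8.49, 8.29 and 7.97 on day 3, 7.30, 7.49, 6.89 and 7.13 on day 7, and 4.95, 5.47, 5.59 and 5.24 in sham. It rose by 2.68 ± 0.23 on day 3 (adjusted p = 4.02e-06) and 1.89 on day 7 (adjusted p = 0.000167), with no overlap with sham on either day. One H2B row fell on day 1, with 10.53, 10.83, 8.84 and 10.22 on day 1, 10.33, 11.92, 11.65 and 11.23 on day 3, 12.15, 12.13, 12.25 and 12.08 on day 7, and 11.98, 11.93, 12.22 and 12.13 in sham. Its day 1 difference was -1.96 ± 0.37 (adjusted p = 0.00252), the lowest value being array 13, and day 3 (-0.78, adjusted p = 0.228) and day 7 (0.09) were not called.

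**Figure D5:**
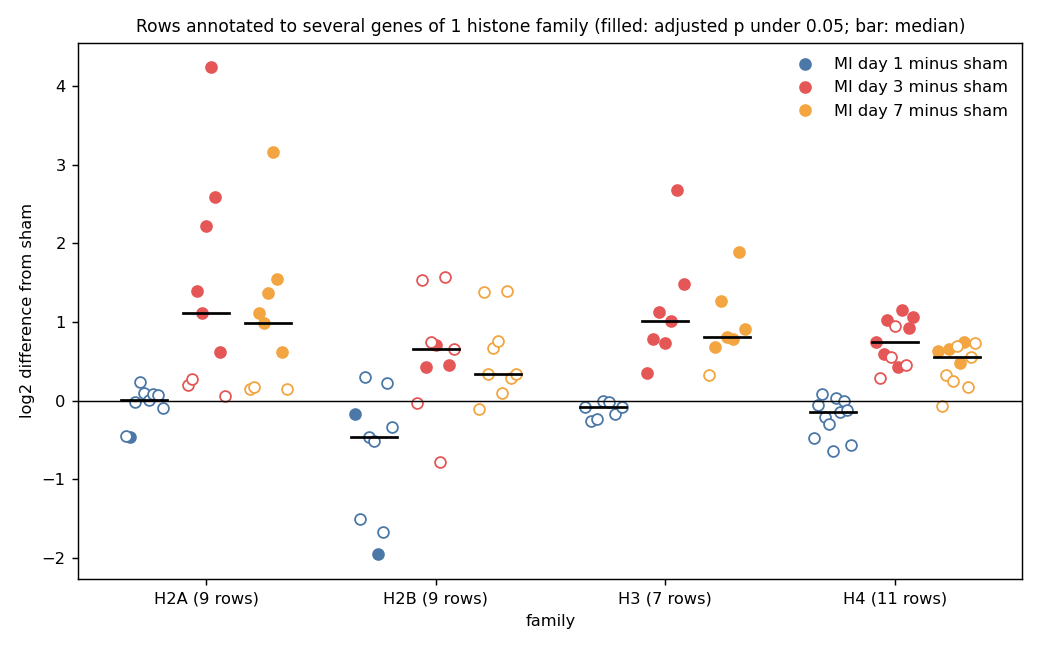
Each point is 1 row annotated to several genes of a single histone family (H2A 9, H2B 9, H3 7 and H4 11 rows), with its log2 difference from sham (vertical axis) on day 1, day 3 and day 7; filled points have an adjusted p below 0.05 in the fit over all rows and bars are family medians. The day 3 medians are 1.11, 0.66, 1.01 and 0.75, and all 7 H3 rows are filled on day 3. Medians and filled points include rows at background, which have no size.

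Genes that act with the histones were read from fixed lists. Their counts stand against the shares of all tested genes called higher and lower, which were 24.9% and 22.2% on day 1, 23.5% and 20.2% on day 3, and 14.9% and 9.92% on day 7. Counts under quantile normalisation stand against 14.3%, 14.1% and 9.87% called higher on days 1, 3 and 7. Of 13 tested genes for histone transcription and 3′ end processing, 4 were higher and 2 lower on day 3, 1 higher and 3 lower on day 1, and none higher and 2 lower on day 7; after quantile normalisation none was higher on day 3. Slbp, which binds the histone stem-loop, rose by 0.32 ± 0.06 on day 3 (limma, adjusted p = 0.00093) and was not called on day 1 or 7. Casp8ap2, which acts at histone gene clusters, rose by 0.29 ± 0.09 on day 3 (adjusted p = 0.0176). Npat, the activator of histone transcription, was not called on any day, with differences of -0.21, -0.14 and 0.09. Cpsf3 and Sympk, of the 3′ end cleavage complex, were lower on all 3 days, with day 3 differences of -0.52 and -0.51 (adjusted p = 0.0151 and 0.000576). E2f1, E2f2, Lsm11 and Zfp473 were at background.

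Of 16 tested histone chaperone genes 9 were higher and 1 lower on day 3, where 4 were higher under quantile normalisation, against 4 higher and 2 lower on day 1 and 5 higher on day 7 (none and 1 under quantile normalisation). The paired chaperones of H3 and H4 moved in opposite directions: on day 3 Asf1b rose by 1.02 ± 0.12 (limma, adjusted p = 1.86e-05) and Asf1a differed by -1.40 (adjusted p = 0.00505). Of 7 tested replication-independent variants none was higher and 3 were lower on day 1, 4 were higher and 1 lower on day 3 (2 higher under quantile normalisation), and 2 were higher on day 7. H2afz rose by 1.93 ± 0.32 (adjusted p = 0.00029) and H2afx by 1.25 ± 0.21 (adjusted p = 0.000291) on day 3, and H2afv fell on day 1 (-2.33 ± 0.42, adjusted p = 0.000621) and day 3 (-1.64, adjusted p = 0.00576).

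A list of DNA replication genes and one of mitosis genes were read against the same shares. Of 32 tested DNA replication genes 26 were higher on day 3 and none lower, 14 higher on day 7 and 9 higher and 2 lower on day 1. The day 1 and day 7 counts depended on the setting: 1 and 4 were higher under quantile normalisation, where 14.3% and 9.87% of all tested genes were. Without day 3 array 31, 15 were higher on day 1, where 35.6% of all tested genes were. Their medians were 0.14 on day 1, 0.69 on day 3 and 0.22 on day 7, and 21 were lower on day 7 than on day 3. Of 20 tested mitosis genes all 20 were higher on day 3 and on day 7, 1 was higher and 1 lower on day 1, and 5 were lower on day 7 than on day 3, where 8.57% of all tested genes were lower. Pcna, the sliding clamp of DNA polymerase, rose by 0.81 on day 1 (limma, adjusted p = 0.000341), 1.64 on day 3 (adjusted p = 1.17e-06) and 0.52 on day 7 (adjusted p = 0.0116). No histone gene was called higher on day 1, and the difference between Pcna and the histone genes was not tested. Mki67 rose by 5.90 ± 0.53 on day 3 (adjusted p = 2.02e-06) and 5.15 on day 7 (adjusted p = 1.65e-05).

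Markers of other cells were read from lists in the same way, against the shares of all tested genes above. Of 10 macrophage markers 8 were higher on day 1, 10 on day 3 and 9 on day 7, and the mean of the list per array lay between 10.06 and 10.41 on day 1, 9.91 and 11.38 on day 3, 9.78 and 11.15 on day 7, and 7.28 and 7.50 in sham. Of 10 neutrophil markers 9 were higher on day 1, 9 on day 3 and 1 on day 7, with list means of 9.37 to 10.68 on day 1, 6.34 to 9.99 on day 3, 5.02 to 5.47 on day 7 and 4.42 to 4.61 in sham, where Retnlg, Mmp8, Mmp9 and Slfn4 were at background. Of 6 monocyte markers 4, 5 and 2 were higher. Of 6 fibroblast markers 3 were lower on day 1, 3 higher on day 3 and 5 higher on day 7, with list means of 10.53 to 11.76 on day 1, 11.94 to 14.20 on day 3, 15.42 to 16.09 on day 7 and 11.31 to 11.72 in sham. Of 7 atrial cardiomyocyte markers 5 were lower on day 1, 5 on day 3 and none on day 7. Without day 3 array 31, 3 were lower on day 3 and 3 on day 7, where 18.4% and 15.9% of all tested genes were lower. Of 4 ventricular cardiomyocyte markers 3 were lower on day 1, 4 on day 3 and 2 on day 7. Of 6 endothelial markers 1 was higher and 2 lower on day 1, 2 were higher on day 3 and 1 on day 7. Of 5 mesothelial markers 1 was lower on day 1 and none was called on day 3 or 7, and the 1 tested erythroid marker was not called on any day. All 7 measured neutrophil precursor markers and all 6 lymphocyte markers were at background in every group.

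On day 3 array 31 the median deviations from sham were 2.15 for macrophage markers, 0.63 for fibroblast markers, 0.82 for mitosis genes and 0.35 for DNA replication genes, against 3.66 to 4.13, 2.61 to 2.72, 2.38 to 2.48 and 0.79 to 0.82 on the other 3 day 3 arrays. The histone genes Hist1h2aj, Hist1h2af and Hist1h1b were also lowest on that array among the day 3 arrays. Other histone genes were not: Hist1h1d (5.12) and Hist1h3f (5.16) had their highest day 3 value there. The H3 family median also lay highest there among the day 3 arrays, at 0.69 above the sham mean. The part of cell numbers or of array quality in the histone differences was not tested. In a whole-tissue sample, more cells of a type and more histone mRNA in each cell cannot be told apart.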

How the data were processed

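Atrial RNA of 16 arrays was analysed from the value table deposited by the authors, which holds log2 signals, 1 column per array. Affymetrix Expression Console is the tool named, without a version, per the submitters' processing notes; how it corrected background, summarised and scaled is not given in those sources. Per the labels, the arrays were of a 3′ expression type, while the row names are those of transcript clusters, so their design is uncertain. Rows were joined to symbols through an annotation table of these clusters, and RefSeq tables of GRCm38.p6 gave chromosomes, gene order and promoters; all 29 histone genes matched.

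Per gene with 1 symbol the row of the highest mean was used. Genes above the array's median on at least 4 of the 16 arrays were tested. limma 3.58.1 in R 4.3.3 (lmFit with 1 mean per group, eBayes with a variance trend) compared each day with sham and the days with each other, 6 comparisons and a moderated F test over the 3 days, with Benjamini-Hochberg adjustment in each. Samples were grouped by their labels. The background rule uses 5222 negative controls. Tables and figures used Python 3.11.15, pandas 2.3.3, numpy 2.4.6 and matplotlib 3.10.9.

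Named with values on every array were, per family, up to 5 called genes with the largest difference from sham, or the 2 of the highest mean where none was called; from the other lists, the called genes with the largest differences and a few preset ones, of which some are printed. The other genes were named by range or in small counts, and full values of Hist1h1c, Hist1h3g, Hist1h4b and 3 shared rows were added after they were seen. The histone genes and all lists were chosen with earlier results of these data known.

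Alternatives were 2 other scalings, no filter and a stricter one, the mean over rows, no variance trend, array weights and leaving out arrays. The number of arrays limits the precision. On simulated data for day 3 against sham over 18420 genes, 73.0% of 100 genes shifted by 1.0 on the log2 scale were recovered. Of 100 genes shifted by 2.0, 91.0% were recovered, with 11 false calls. In the real data 23.5% of all tested genes were called higher on day 3 and 20.2% lower, far more than were shifted. The Benjamini-Hochberg adjustment depends on how many genes change, so the recovered shares do not tell how many such genes the tests here would find.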

Additional observations from a re-analysis of the deposited data

Results flagged for a closer look

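Within groups of 4 arrays, 5 of 60 sets of values held 1 array far from the other 3, where chance gives about 1 in 20. On day 3 array 31, Hist1h1b was at 3.93 while the others lay between 5.08 and 5.27, Hist1h2aj was at 13.42 against 15.69 to 15.90, and Hist1h2af was at 11.63 against 13.66 to 13.85. Day 7 array 73 had 4.41 for Hist1h1a, where the others had 3.96 to 4.03. Sham array 1 had 7.34 for Hist2h2be, where the others had 8.56 to 8.65.

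The difference from sham differed between day 3 and day 1, by the limma test of day 3 against day 1, in 11 genes named for their difference from sham, where 5.95% of all tested genes were called higher on day 3 than on day 1. Without day 3 array 31 that share of all tested genes was 18.8%. The measured differences, day 3 minus day 1, were 4.14 for Hist1h2aj, 3.93 for Hist1h2af, 1.60 for H2ac20 and 0.74 for Hist1h2bk. Where day 1 was at background the difference is at least 0.51 for Hist1h2ak (fitted 1.88), at least 0.94 for Hist2h2bb (fitted 1.54), at least 0.90 for Hist1h2ba (fitted 1.21), at least 0.14 for Hist1h1b (fitted 1.27) and at least 0.14 for Hist1h3f (fitted 0.44). No size can be given for Hist1h1a (fitted 1.27) or Hist1h2ap (fitted 1.12). A fitted value against a level at background is no bound.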

How the results depend on the processing

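No paired analysis was possible because the groups share no replicate numbers. Under none of 24 alternatives did a called difference of a named gene change sign. The stricter filter asked for values above the 95th percentile of the negative controls on at least 4 of the 16 arrays. It kept 3 histone genes. By that construction counts against sham fell to 2 higher and 0 lower on day 3, 2 higher and 0 lower on day 7 and 0 lower on day 1. Counts against day 1 fell to 2 higher for day 3 and 2 for day 7. Without the filter 1 gene was lower on day 1. Leaving out an array leaves a difference between other groups unchanged and alters only the spread that all groups share, and with it the p. For the other changes the cause was not tested. With array weights 1 gene was higher on day 1, 13 were higher on day 7, and 9 were lower on day 7 than on day 3. The shares of all tested genes were 36.2%, 23.2% and 18.6%. Without day 1 array 13 and day 3 array 31 the day 7 counts were 12 higher than sham and 8 lower than day 3, against 21.3% and 15.2%.

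Leaving out single arrays gave 1 to 3 genes lower on day 1, 13 to 16 higher and 1 to 2 lower on day 3, 6 to 12 higher on day 7 (12 without day 3 array 31), 11 to 15 higher on day 3 than day 1, 0 to 7 lower on day 7 than day 3, and 9 to 12 higher on day 7 than day 1. Of all 18420 tested genes, the same fits called 3104 to 4958 lower on day 1. They called 3852 to 4933 higher and 3144 to 3890 lower on day 3, and 2138 to 3595 higher on day 7. Between days they called 557 to 3457 higher on day 3 than day 1 and 1019 to 2231 lower on day 7 than day 3. From day 1 to day 7, 1792 to 3956 were higher.

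Family medians include genes at background; both H4 genes were there, so an H4 median gives no size. Medians against sham on day 1 moved to -0.13 and -0.16 for H1, -0.23 and -0.21 for H2A under quantile normalisation and subtraction of array medians, and under the second to -0.33 for H2B and -0.18 for H4. With the mean over all rows H4 was 0.29 on day 3 and 0.27 for day 3 minus day 1. Day 7 minus day 3 was -0.16 and -0.16 for H1 and -0.12 and -0.10 for H2A under the 2 scalings, 0.0223 for H2B under the second, and -0.34 for H2A without arrays 13 and 31. Day 7 minus day 1 was 0.72 and 0.72 for H1, 0.90 and 0.94 for H2A, 0.58 and 0.61 for H2B, 0.51 and 0.53 for H3, and 0.59 for H4 under the second. Without arrays 13 and 31 it was 0.11 for H1, and day 3 minus day 1 was 0.44 for H2B.

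With single arrays left out, medians against sham ranged, for H1, H2A, H2B, H3 and H4 in turn, from -0.10 to 0.0213, -0.14 to -0.0225, -0.22 to -0.11, -0.01 to 0.08 and -0.08 to 0.02 on day 1, from 0.44 to 0.68, 0.79 to 0.94, 0.20 to 0.38, 0.44 to 0.58 and 0.41 to 0.53 on day 3, and from 0.37 to 0.57, 0.55 to 0.73, 0.18 to 0.28, 0.32 to 0.54 and 0.28 to 0.42 on day 7. Day 3 minus day 1 ranged from 0.30 to 0.66, 0.81 to 0.99, 0.27 to 0.48, 0.37 to 0.54 and 0.43 to 0.55, day 7 minus day 3 from -0.32 to -0.21, -0.34 to -0.13, -0.14 to -0.01, -0.22 to -0.06 and -0.19 to -0.03, and day 7 minus day 1 from 0.11 to 0.63, 0.71 to 0.79, 0.38 to 0.46, 0.24 to 0.41 and 0.31 to 0.44. Over the named genes and all alternatives, calls were lost 33 times and gained 21 times. Signal near background limits H4, most of H1 and H3, and every bound given.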
